A study of Homo sapiens with 12 samples.

Results

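The 54 genes described here encode the machinery that licenses replication origins and runs the replication fork. They were taken by gene symbol, from their known function, out of 60651 genes in the count table, and each symbol matched 1 gene. The list and those set beside it were drawn up with earlier results of these data known. RNA was sequenced from 12 libraries of 2 established human cholangiocarcinoma (CCA, bile duct cancer) cell lines, both labelled WT, with 2 libraries in each of 6 arms and 72 h of treatment in every arm. EGI-1 cells received DMSO vehicle, 500 nM decitabine, 200 nM talazoparib or both agents. HUCCT1 cells received DMSO vehicle or 1000 nM decitabine, and no talazoparib arm of HUCCT1 was analysed here. Decitabine is a nucleoside that traps and depletes DNA methyltransferases, and talazoparib is a PARP inhibitor that traps PARP on DNA. Library names of the talazoparib arm read 50, whereas 200 nM is the dose in the labels and the methods. The sources do not say whether libraries of an arm came from separate cultures, so the p-values below measure the spread between these libraries only.

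Replication is licensed in G1 phase, when the origin recognition complex (ORC1 to ORC6), CDC6 and CDT1 load the MCM2 to MCM7 ring onto DNA, and geminin (GMNN) blocks CDT1 once S phase begins. The kinase CDC7 with its activator DBF4, together with MCM10, CDC45 and the GINS proteins, turns the loaded ring into the active CMG helicase. At the fork PCNA is the sliding clamp, RFC1 to RFC5 load it, primase and DNA polymerases alpha, delta and epsilon copy the strands, and FEN1 and LIG1 join Okazaki fragments. Many of these genes are transcribed in late G1 and S phase under E2F factors, so their mRNA is abundant in dividing cells and low in arrested ones.

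Total counts per library lay between 23139065 and 34965627. The 54 genes reached up to 16984 counts in a library (MCM4), and all of them, down to TIPIN with the fewest counts, passed the filter on low counts and were tested in every comparison. Levels are given as CPM, counts as a rate of the library's total after TMM scaling over all 12 libraries. A gene was called when edgeR's quasi-likelihood test gave a Benjamini-Hochberg adjusted p under 0.05 over all genes tested. The epithelial markers KRT19, KRT8, KRT18, EPCAM and CDH1 were present in every library, at 149 CPM or more, while the biliary keratin KRT7 read 39.0 to 69.5 CPM in EGI-1 and 4030 to 7510 CPM in HUCCT1. ALB, a hepatocyte marker, did not exceed 0.108 CPM. The second combination library of EGI-1 stood apart for leukocyte markers, with 381 counts of PTPRC (12.5 CPM) and 148 counts of CD3E (4.87 CPM), where the other EGI-1 libraries had at most 7 and 4 counts. The main counts, library orders and overlaps of the combination are therefore also given without it. In HUCCT1 the summed CPM of 6 markers of other cells was 27.5 and 30.4 with vehicle and 165 and 196 with decitabine, most of it COL1A1.

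In vehicle-treated cells PCNA had the highest level of the 54 genes per kb of transcript, at 187 CPM per kb in EGI-1 and 194 in HUCCT1. In EGI-1 it was followed by MCM3 (139 CPM per kb), MCM4 (132), MCM7 (118) and FEN1 (89.4). In HUCCT1 POLD2, a subunit of polymerase delta, came next, ahead of MCM7 (126), MCM4 (101) and FEN1 (88.3). MCM8, a paralogue of the ring subunits that acts in recombination, was the lowest in both lines, at 3.68 and 3.62 CPM per kb. These ranks are descriptions of vehicle means over 2 libraries, and neighbours in the order were not tested against each other.

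The combination was compared with vehicle in EGI-1 to see how both agents together acted on these genes. The helicase subunits MCM6 and MCM5 and the sliding clamp PCNA fell most. MCM6, a ring subunit, read 182.3 and 179.4 CPM with vehicle, 166.6 and 160.5 with decitabine, 126.1 and 131.9 with talazoparib and 102.2 and 97.7 with both. MCM5 read 267 and 251, then 223 and 232, then 189 and 186, and then 152 and 148 CPM in the same order of arms. PCNA read 242 and 236, 227 and 233, 188 and 185, and 154 and 160 CPM. For each of these 3 genes the 4 arms followed in that order with no overlap between their libraries, although the decitabine libraries of PCNA lay close to vehicle. The log2 fold change of the combination against vehicle was -0.86 (SE 0.060, adjusted p = 2.6e-08) for MCM6, -0.80 (SE 0.058, adjusted p = 3.9e-08) for MCM5 and -0.61 (SE 0.056, adjusted p = 5.9e-07) for PCNA. MCM6 (ENSG00000076003.5) lies on the minus strand of chromosome 2 at 135839626 to 135876443 in GRCh38, MCM5 (ENSG00000100297.16) on the plus strand of chromosome 22 at 35400134 to 35425431, and PCNA (ENSG00000132646.11) on the minus strand of chromosome 20 at 5114953 to 5126626.

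**Figure D1:**
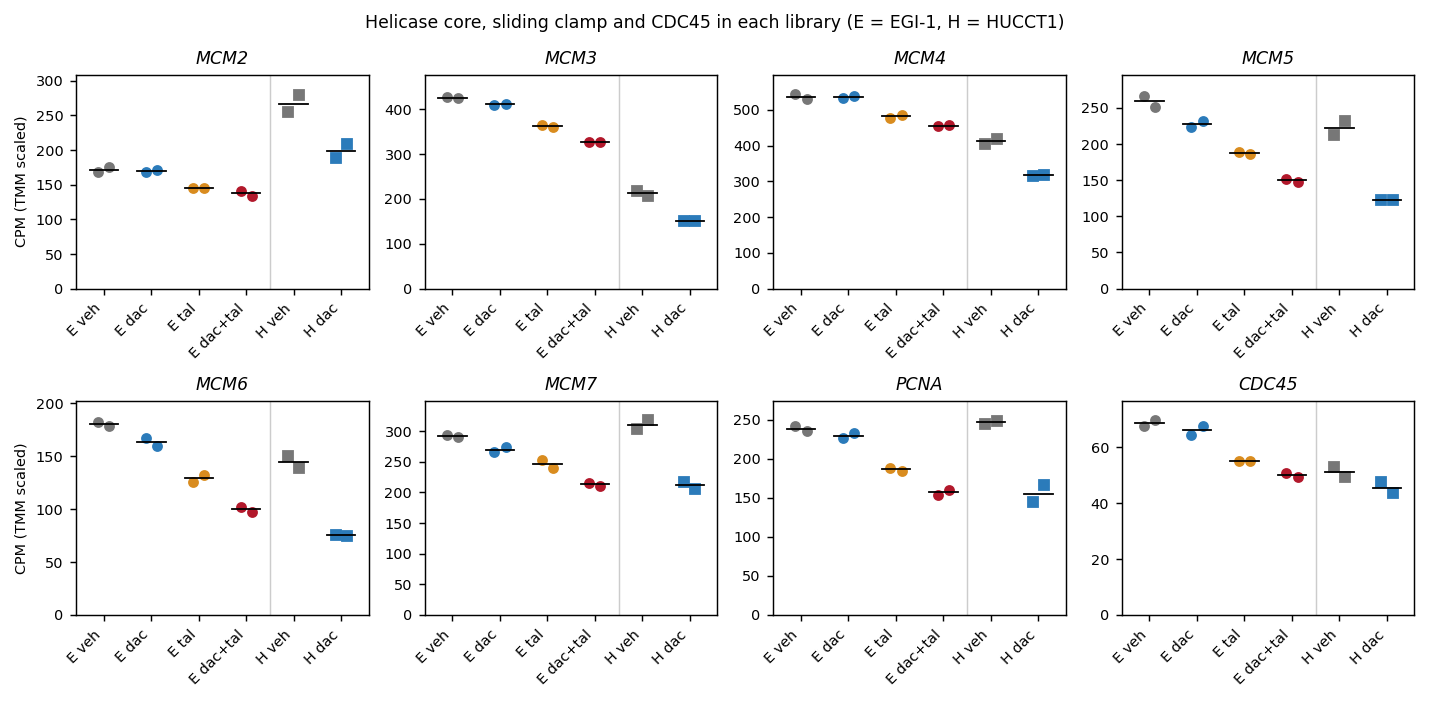
CPM (linear axis from 0, TMM scaled over 12 libraries) of MCM2 to MCM7, PCNA and CDC45 in each library of EGI-1 (circles, E) and HUCCT1 (squares, H); points are libraries, lines are means of 2, and veh, dac and tal stand for vehicle, decitabine and talazoparib. In each EGI-1 panel both combination libraries lie below both talazoparib libraries, which lie below both vehicle libraries.

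Of the 54 genes, 16 were called lower and 1 higher in the combination, which is 31.5% against 18.7% of all 22406 genes tested. Of all genes, 7.61% were called lower and 11.1% higher. The median log2 fold change of the 54 was -0.10, and that of all genes -0.02. Both combination libraries lay below both vehicle libraries for 31 of the 54 and above them for 11, where 30.7% and 29.6% of all genes did so. In bulk RNA, fewer cells in S phase and less mRNA per cell cannot be told apart. Without the second combination library, 15 genes were called lower and 1 higher, against 3.85% and 6.88% of all genes, and the remaining one lay below both vehicle libraries for 38 genes and above them for 13 (42.6% and 40% of all genes).

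The MCM2 to MCM7 ring was the group with every member called lower, 6 of 6, with log2 fold changes from -0.86 to -0.24. Besides MCM6 and MCM5 these were MCM7 (-0.46, adjusted p = 1.4e-05), MCM3 (-0.39, adjusted p = 3.6e-05), MCM2 (-0.33, adjusted p = 0.00056) and MCM4 (-0.24, adjusted p = 0.0024). MCM4, the ring gene with the most reads, read 543 and 529 CPM with vehicle and 454 and 457 with both agents. The 6 subunits fell by unequal amounts. Per kb of transcript, the highest subunit stood 2.88 times above the lowest with vehicle, 3.07 times with decitabine, 3.46 times with talazoparib and 4.21 times with both. MCM6 was the lowest in each arm, and the highest was MCM3 with vehicle and decitabine and MCM4 with talazoparib and both.

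Among the genes that fire the origin, CDC45 read 67.6 and 69.6 CPM with vehicle and 50.8 and 49.2 with the combination, a log2 fold change of -0.46 (adjusted p = 9.2e-05). GINS2 (-0.37, adjusted p = 0.0016) and MCM10 (-0.21, adjusted p = 0.041) were also called lower. The sister subunits of the GINS complex did not follow. GINS3 was the one gene of the 54 called higher, from 25.4 and 27.5 CPM with vehicle to 36.0 and 32.8 with both agents (log2 fold change 0.37, SE 0.085, adjusted p = 0.0051). GINS1 (-0.01) and GINS4 (0.11) were not called. CDC7 (-0.22, adjusted p = 0.16) and DBF4 (-0.10, adjusted p = 0.52), the kinase that triggers firing, were not called either. GINS3 (ENSG00000181938.14) lies on the plus strand of chromosome 16 at 58295080 to 58406147. It lost its call without the first vehicle library or without the first combination library, with an adjusted p of up to 0.11 and a log2 fold change between 0.30 and 0.44 over the alternatives.

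The licensing factors upstream of the ring gave a different picture. ORC1, the ORC subunit whose level varies most with the cell cycle, read 39.4 and 40.8 CPM with vehicle and 31.9 and 32.8 with both agents (log2 fold change -0.32, adjusted p = 0.0076). ORC2 to ORC6 were not called, and ORC6 had the largest positive value among them (0.21, adjusted p = 0.058). CDC6 read 126 and 121 CPM with vehicle and 134 and 132 with the combination, and CDT1 read 156.3 and 155.3, then 171.8 and 166.5. Both loading factors lay above vehicle in each combination library, as did 29.6% of all genes, without passing the test (adjusted p = 0.26 and 0.39). The single-agent libraries of CDT1 spread as widely, at 142.7 and 172.8 CPM with decitabine and 173.6 and 152 with talazoparib. Their inhibitor GMNN gave -0.10 (adjusted p = 0.38).

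**Figure D2:**
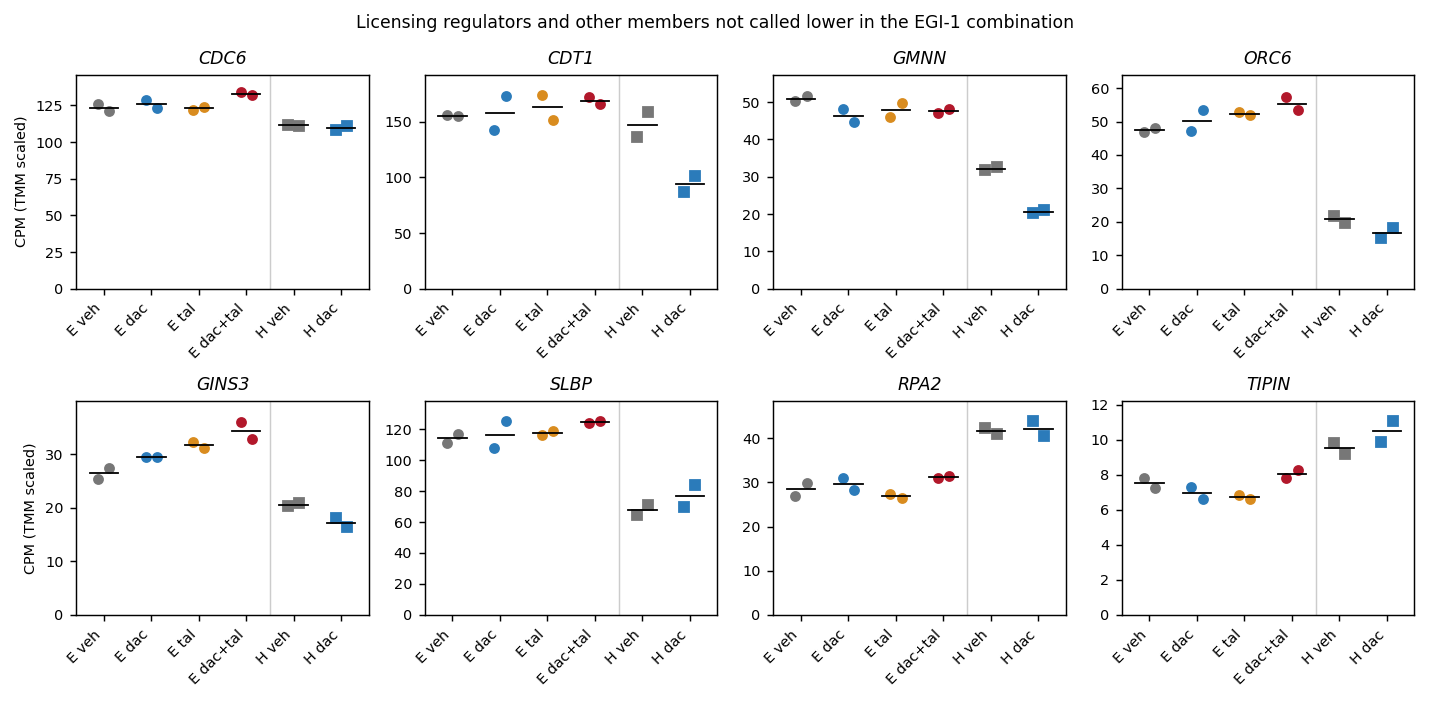
CPM (linear axis from 0, TMM scaled) of 8 genes that were not called lower in the EGI-1 combination, per library, with circles for EGI-1 (E), squares for HUCCT1 (H) and lines at means of 2; veh, dac and tal stand for vehicle, decitabine and talazoparib. Both combination libraries of CDC6, ORC6 and GINS3 lie above the other 6 EGI-1 libraries, and both HUCCT1 decitabine libraries of CDT1 and GMNN lie below both vehicle libraries.

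Behind the helicase, 3 of 8 clamp and clamp loader genes were called lower, namely PCNA, RFC4 (-0.30, adjusted p = 0.011) and RFC5 (-0.24, adjusted p = 0.044). RFC1, RFC2 and RFC3 gave 0.12, 0.00 and 0.10. Of 9 primase and polymerase genes 2 were called lower. POLA1, the catalytic subunit of polymerase alpha, read 46.1 and 49.5 CPM with vehicle and 35.9 and 34.7 with both agents (-0.45, adjusted p = 0.00048), and POLD3 gave -0.31 (adjusted p = 0.0073). POLE, the catalytic subunit of polymerase epsilon and the gene with the most reads in this group, gave -0.04 (adjusted p = 0.75). LIG1 was called lower (-0.29, adjusted p = 0.0087) and FEN1 was not (-0.09, adjusted p = 0.32). No gene was called among the 3 RPA subunits, the 3 fork protection genes, the 2 chromatin assembly genes and the 3 histone mRNA genes, for which values ranged from -0.29 (RPA3) to 0.12 (RPA2 and SLBP). At an unadjusted p under 0.05 the whole list had 20 lower and 2 higher (14.6% and 16.3% of all genes), and DESeq2 called 14 lower and 1 higher. The share of all genes called by DESeq2 was not computed, here or in later comparisons.

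The calls depended in part on single libraries. MCM2, MCM3, MCM5, MCM6, MCM7, CDC45, GINS2, PCNA and POLA1 kept their call in all 16 alternative analyses. Leaving out the first vehicle library left 9 of 17 calls, leaving out the second vehicle library left 11, and leaving out the first combination library left 10. ORC1, RFC4, POLD3 and LIG1 lost their calls in each of these 3 cases, with adjusted p-values of up to 0.11, and MCM4 in the first only (0.070). MCM10 and RFC5 were the least stable, with a call in 5 and 6 of the 16 alternatives. Both lost it with RLE size factors, without the filter on low counts, with DESeq2 and with either replicate block as well, and their largest adjusted p-values were 0.23 and 0.31. Some alternatives added calls. A fit of the 4 libraries of both arms alone called 19 lower and 4 higher, the higher ones being GINS3, ORC6, RFC1 and SLBP, and ORC6 was called higher in 3 further alternatives.

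**Figure D3:**
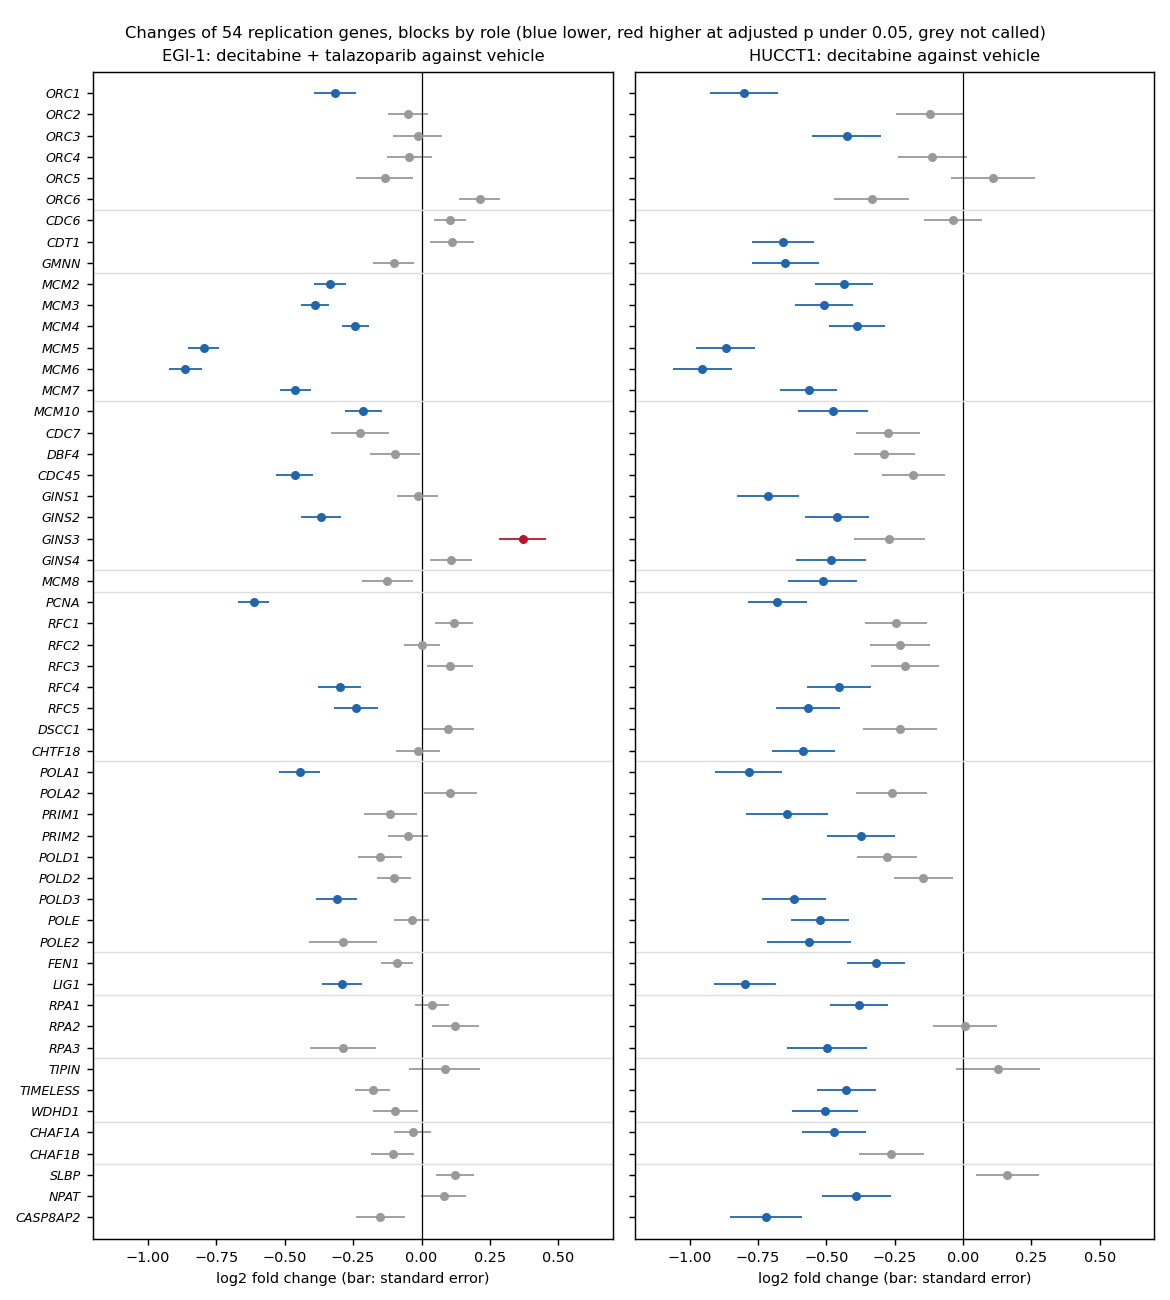
log2 fold change (bar: standard error) of the 54 genes, in blocks by role, for the EGI-1 combination (left) and HUCCT1 decitabine (right) against vehicle; blue is called lower, red called higher and grey not called at an adjusted p under 0.05. The 6 MCM ring genes are blue in both panels, with MCM6 lowest in each, and GINS3 on the left is the single red point.

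Talazoparib alone was compared with vehicle to separate the share of a single agent. With it 9 genes were called lower and none higher, 16.7% of the 54 against 4.12% of all genes (1.29% in the lower direction and 2.83% in the higher). At an unadjusted p under 0.05 there were 15 lower and 1 higher (6.61% and 9.33% of all genes), and DESeq2 called 8 lower and 0 higher. The 9 genes were ORC1, MCM2, MCM3, MCM5, MCM6, MCM7, CDC45, PCNA and POLA1. The log2 fold changes of MCM6 (-0.48, SE 0.060, adjusted p = 0.00012), MCM5 (-0.46, SE 0.058, adjusted p = 0.00012) and PCNA (-0.36, SE 0.056, adjusted p = 0.00085) were the largest among called genes. RPA3 gave -0.38 with a larger error (SE 0.120, adjusted p = 0.093) and was not called. The median of the 54 was -0.09, and that of all genes 0.00. Only MCM5 and MCM6 kept the call in all 16 alternatives. Leaving out the first or the second vehicle library left 2 and 3 calls, and leaving out the first or the second talazoparib library left 4 and 3.

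Decitabine alone at 500 nM gave no call among the 54 in EGI-1 with edgeR or with DESeq2, where 0.544% of all genes were called by edgeR (0.0268% in the lower direction and 0.518% in the higher). The values lay between -0.18 (MCM5, SE 0.057, adjusted p = 0.23) and 0.21 (DSCC1, SE 0.092, adjusted p = 0.48), with a median of -0.01. At an unadjusted p under 0.05 there were 3 lower genes, MCM5, MCM6 and POLA1, and 1 higher, DSCC1. That is 5.56% and 1.85% of the 54, where 3.11% and 6.03% of all genes were lower and higher by the same measure. Both decitabine libraries lay below both vehicle libraries for 14 genes and above them for 9, against 19.4% and 19.3% of all genes.

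When talazoparib was added to decitabine, 12 genes were called lower and none higher (22.2% against 7.68% of all genes, 3.26% in the lower direction and 4.42% in the higher), with 20 lower and 1 higher at an unadjusted p under 0.05 (10.1% and 11.2% of all genes) and 11 lower and 0 higher by DESeq2. They were the 9 genes called with talazoparib alone together with MCM4, MCM10 and POLD3. The comparison of talazoparib with vehicle and that of the combination with decitabine have no library in common, although both come from 1 fit. All 9 genes of the first list were in the second, of which they made up 75.0%. Across the 54 genes the 2 sets of log2 fold changes had a Pearson's r of 0.82 and a Spearman's rho of 0.79, as a description over genes that are not independent. Neither the overlap nor the correlation was computed over all genes, so neither can be called particular to the 54. MCM6 gave -0.48 without and -0.73 with decitabine in the background. Without the second combination library, and likewise without the first, 8 of the 12 calls were made, and ORC1, MCM10, POLA1 and POLD3 were lost. Over all alternatives their log2 fold changes stayed between -0.33 and -0.26 for ORC1, -0.30 and -0.24 for MCM10, -0.30 and -0.25 for POLA1 and -0.36 and -0.24 for POLD3.

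When decitabine was added to talazoparib, 3 genes were called lower and none higher (5.56% against 1.92% of all genes, 0.567% in the lower direction and 1.36% in the higher), with 7 lower and 1 higher at an unadjusted p under 0.05 (5.63% and 7.65% of all genes) and 4 lower and 0 higher by DESeq2. They were MCM6 (-0.38, SE 0.061, adjusted p = 0.0023), MCM5 (-0.33, SE 0.058, adjusted p = 0.0044) and PCNA (-0.26, SE 0.056, adjusted p = 0.023). None of the 3 calls held without the second combination library, the one with leukocyte transcripts. The values without it stayed within -0.41 to -0.34 for MCM6, -0.35 to -0.31 for MCM5 and -0.28 to -0.23 for PCNA, which are the ranges over all alternatives, and the largest adjusted p-values over these were 0.058, 0.093 and 0.18. Leaving out the first talazoparib library left 1 call, MCM6, and leaving out the second left 1, MCM5. PCNA was called in 8 of the 16 alternatives. Its call was also lost with either replicate block, without either vehicle library and without the first combination library.

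An interaction term asked whether both agents together moved a gene beyond the added log2 changes of each agent. No gene of the 54 was called by edgeR or by DESeq2, while edgeR called 0.161% of all genes (0.152% lower and 0.00893% higher). MCM6 (-0.24, SE 0.085) and PCNA (-0.21, SE 0.079) were the 2 genes with an unadjusted p under 0.05 (1.99% of all genes lower and 1.39% higher), and both had an adjusted p of 1. Without the second combination library the values were -0.20 and -0.23, again not called. Both combination libraries lay below both talazoparib libraries, and these below both vehicle libraries, for 15 of the 54 genes (27.8%), against 7.32% of all genes. The same 15 genes, MCM2 to MCM7, MCM10, CDC45, GINS2, PCNA, RFC4, POLA1, POLD3, FEN1 and LIG1, had both combination libraries below the other 6 EGI-1 libraries, where 10.1% of all genes did. The opposite, both combination libraries above the other 6, was seen for ORC6, CDC6 and GINS3 (5.6% of the 54 against 13.7% of all genes). With the first combination library alone, the 3 orders held for 19, 22 and 5 genes, against 11.7%, 21.1% and 23.2% of all genes.

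**Figure D4:**
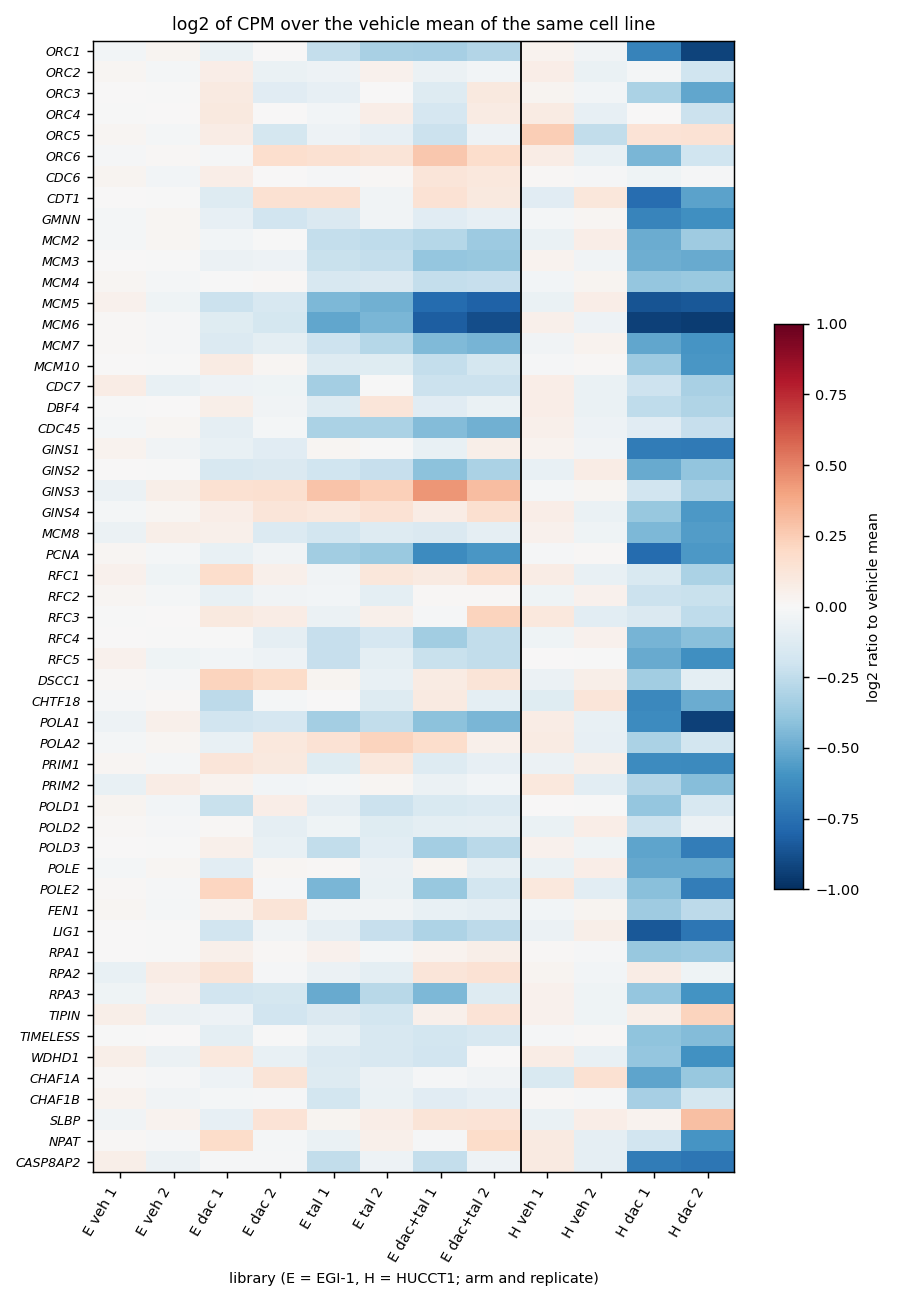
log2 of the CPM of each of the 54 genes in each of 12 libraries over the vehicle mean of the same line (colour scale from -1 to 1; rows in order of role, columns are libraries, with a line between EGI-1 (E) and HUCCT1 (H)). In EGI-1 the MCM2 to MCM7, PCNA and CDC45 rows darken from talazoparib to the combination, and in HUCCT1 49 and 51 of the 54 rows lie below the vehicle mean in the decitabine libraries.

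RefSeq promoter windows, from 250 bases before to 50 bases after a transcript start, were at hand for 47 of the 54 genes, in 58 windows on GRCh38.p14. An E2F motif, searched on both strands as TTCCCGC or TTGGCGC, was present in 31 of 58 windows (53.4%), against 9.23% of 35116 windows of all genes. The CCAAT box (CCAAT, both strands) was present in 55.2% against 34.6%, and the CHR element of mitotic genes (TTTGAA, both strands) in 1.72% against 15.2%. None of these motifs is contained in another. The windows of MCM6 and PCNA, which fell most in the EGI-1 combination among genes with a window, are shown with those of GINS3, the gene that rose, and CDC6, which was not called in any treatment. PCNA has a further window at chr20:5119909-5120208 that holds 0 copies of the E2F motif and 2 CCAAT boxes and is not shown. The GINS3 window belongs to a transcript start inside the gene span, whose first base is 58295080. Sequences run 5′ to 3′ on the strand of the gene, with the E2F motif in capitals.
MCM6 chr2:135876394-135876693 (minus strand): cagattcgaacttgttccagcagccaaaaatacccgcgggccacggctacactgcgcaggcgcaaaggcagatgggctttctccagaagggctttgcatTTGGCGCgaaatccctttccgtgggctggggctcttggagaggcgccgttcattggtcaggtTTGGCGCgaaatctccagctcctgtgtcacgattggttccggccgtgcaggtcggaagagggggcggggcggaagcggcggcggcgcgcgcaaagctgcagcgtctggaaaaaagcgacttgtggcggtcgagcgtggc
PCNA chr20:5126573-5126872 (minus strand): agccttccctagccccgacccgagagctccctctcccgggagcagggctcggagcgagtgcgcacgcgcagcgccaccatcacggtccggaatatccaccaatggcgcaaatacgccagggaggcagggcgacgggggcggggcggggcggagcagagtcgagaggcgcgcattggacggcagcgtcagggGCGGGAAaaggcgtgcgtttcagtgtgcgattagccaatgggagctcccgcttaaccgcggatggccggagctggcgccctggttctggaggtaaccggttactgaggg
GINS3 chr16:58392221-58392520 (plus strand): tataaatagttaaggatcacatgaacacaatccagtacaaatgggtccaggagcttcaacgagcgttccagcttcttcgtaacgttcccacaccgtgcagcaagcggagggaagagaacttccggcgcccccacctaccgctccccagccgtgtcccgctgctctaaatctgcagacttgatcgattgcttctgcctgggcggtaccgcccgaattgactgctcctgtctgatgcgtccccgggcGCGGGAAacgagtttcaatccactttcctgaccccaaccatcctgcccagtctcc
CDC6 chr17:40287629-40287928 (plus strand): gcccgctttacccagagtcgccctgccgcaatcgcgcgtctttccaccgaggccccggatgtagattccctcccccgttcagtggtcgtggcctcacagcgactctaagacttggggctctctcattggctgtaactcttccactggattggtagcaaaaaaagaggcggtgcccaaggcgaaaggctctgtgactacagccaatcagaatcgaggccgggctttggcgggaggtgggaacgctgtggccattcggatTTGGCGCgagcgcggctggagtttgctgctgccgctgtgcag

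All 4 windows shown hold the motif, MCM6 with 2 copies and the others with 1. Only exact copies of the searched letters were counted, so E2F sites with other letters are missed. The first base of the copies nearest the start lies 89 bases before it in MCM6, 59 before in PCNA and 5 before in GINS3, and the copy of CDC6 begins 9 bases after it. The MCM6 window has 2 CCAAT boxes, PCNA and CDC6 have 3 each, and GINS3 has 0. In EGI-1 the median log2 fold change in the combination was -0.11 for the 29 genes with the motif and -0.09 for those without. In HUCCT1 with decitabine the medians were -0.51 and -0.30. These are descriptions of sequence and were not tested. MCM5, MCM4, GINS4, DSCC1, POLD3, RPA2 and RPA3 had no window.

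Decitabine at 1000 nM was compared with vehicle in HUCCT1, where it reached most of the list. It lowered 34 of the 54 genes and raised none, 63% against 33.5% of all 22479 genes tested (13.9% in the lower direction and 19.6% in the higher). At an unadjusted p under 0.05 there were 41 lower and 0 higher (18.7% and 23.4% of all genes), and DESeq2 called 34 lower and 0 higher. The median log2 fold change was -0.43, and that of all genes 0.00. Both decitabine libraries lay below both vehicle libraries for 46 of the 54 genes and above them for 1, TIPIN, where 30.6% and 34.5% of all genes did so. Per library, 49 and 51 genes lay below the vehicle mean, with a median log2 ratio of -0.39 and -0.42. By fold change 50 of the 54 were below zero, as were 11215 of all 22479 genes.

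MCM6 fell most here as well, from 150 and 139 CPM to 75.5 and 75.0 (log2 fold change -0.95, SE 0.108, adjusted p = 1.3e-07). MCM5 read 212 and 232 CPM with vehicle and 122 and 123 with decitabine (-0.87, SE 0.107, adjusted p = 4.4e-07). ORC1 and LIG1 came next, at nearly the same value. LIG1 read 64.2 and 69.4 CPM, then 37.0 and 40.4 (-0.80, adjusted p = 4.4e-06). ORC1 read 45.5 and 43.2, then 27.9 and 23.3 (-0.80, adjusted p = 1.4e-05). For none of these 4 genes did the libraries of the 2 arms overlap. POLA1 read 76.8 and 69.3 CPM and then 47.2 and 38.2 (-0.78, adjusted p = 1.5e-05). CASP8AP2 (FLASH), which acts in the processing of histone mRNA, read 25.7 and 22.8 and then 15 and 14.7 (-0.72, adjusted p = 0.00011). The 6 ring genes were all called lower, from -0.95 to -0.39, and the ratio of the highest to the lowest subunit per kb went from 3.27 with vehicle to 4.28 with decitabine.

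Genes called lower were found in each of the 12 role groups. The licensing pair CDT1 and GMNN fell together. CDT1 read 136 and 159 CPM, then 86.9 and 101 (-0.66, SE 0.114, adjusted p = 5.7e-05), and GMNN 31.8 and 32.6, then 20.3 and 21 (-0.65, SE 0.122, adjusted p = 0.00015). CDC6 read 112 and 111 CPM, then 108 and 111, and was not called (-0.04, SE 0.106, adjusted p = 0.83). In the GINS complex GINS1 (-0.71), GINS2 (-0.46) and GINS4 (-0.48) were called lower, and GINS3 was not (-0.27, adjusted p = 0.12). CDC45 gave -0.18 (adjusted p = 0.24). Among clamp genes PCNA (-0.68), CHTF18 (-0.58), RFC5 (-0.57) and RFC4 (-0.45) were called lower. Of 9 primase and polymerase genes 6 were called, namely POLA1, PRIM1 (-0.64), POLD3 (-0.62), POLE2 (-0.56), POLE (-0.52) and PRIM2 (-0.37). FEN1 (-0.32), RPA1 (-0.38), RPA3 (-0.50), TIMELESS (-0.43), WDHD1 (-0.50), CHAF1A (-0.47), NPAT (-0.39), MCM8 (-0.51), MCM10 (-0.48) and ORC3 (-0.43) completed the list.

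The genes with the highest values in HUCCT1 were SLBP (0.16, adjusted p = 0.31), TIPIN (0.13, adjusted p = 0.57), ORC5 (0.11, adjusted p = 0.63) and RPA2 (0.01, adjusted p = 0.97), and none was called. With a replicate block by title number, 46 of the 54 genes were called lower and 1 higher, SLBP (adjusted p = 0.039). The share of all genes called under this block was not computed, so these counts have none to be read against. SLBP, the stem-loop binding protein of histone mRNA, read 64.8 and 71.2 CPM with vehicle and 69.7 and 83.6 with decitabine. Its libraries overlapped, as did those of ORC5 and RPA2. The 34 calls were 26 to 34 when any library of HUCCT1 was left out. Of them 22 held in all 10 alternatives, with MCM4, FEN1 and RPA1 among those lost whichever decitabine library was left out (largest adjusted p 0.052, 0.19 and 0.054).

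Other features moved with this result in HUCCT1, and their part in it was not tested. The 4 tested genes of the list of markers of other cells were all called higher, with CD3E at 0 and 1 counts in vehicle and 17 and 23 in decitabine, whereas PTPRC had 3 to 4 counts and ALB 0 to 1 in all 4 libraries. Of 7 biliary epithelial markers 4 were called lower and 1 higher, and their summed CPM went from 14800 and 16600 to 9370 and 10700. Of 30 mitosis genes 28 were called lower, with a summed CPM of 5540 and 5370, then 3750 and 3430. Of all genes in HUCCT1, 13.9% were called lower and 19.6% higher. In the EGI-1 combination 1 of 2 tested markers of other cells was called higher, COL1A1, from 30.3 and 28.3 CPM to 49.4 and 42.6 (0.64, adjusted p = 0.00033). The summed CPM of all 6 went from 34.1 and 32.6 to 53 and 64.5, the last including the PTPRC and CD3E of the second combination library. There 3 of 7 biliary markers were called higher and none lower (8310 and 8340 CPM in sum, then 9270 and 9170). Of 30 mitosis genes 10 were called lower and none higher (5000 and 4930 CPM in sum, then 4350 and 4480). Of all genes in the EGI-1 combination, 7.61% were called lower and 11.1% higher. The median log2 fold change of the mitosis genes was -0.14, and -0.2 without the second combination library.

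Other replication genes outside the 54, from a list of 45, were examined beside them. In the EGI-1 combination 13 were called lower and 0 higher, against 7.61% and 11.1% of all genes, and at an unadjusted p under 0.05 there were 16 lower and 6 higher (14.6% and 16.3% of all genes). Without the second combination library 10 were called lower and 0 higher. The largest values were those of DUT, which removes dUTP (-0.82, SE 0.082, adjusted p = 1.9e-06), CDCA7 (-0.50) and MCM9 (-0.42). In HUCCT1 28 were called lower and 3 higher, against 13.9% and 19.6% of all genes. CDCA7 (-1.45), MMS22L (-0.98) and PCLAF (-0.95) were lowest, and LRWD1 (0.49), POLE4 (0.40) and MCM3AP (0.31) were the 3 called higher. The replication-dependent histone genes, which are transcribed in S phase, summed to 8900 and 8020 CPM with vehicle in EGI-1, 8180 and 8330 with decitabine, 5810 and 5910 with talazoparib and 3280 and 3570 with both. In HUCCT1 they summed to 4500 and 4630 CPM, then 2830 and 3090. In the EGI-1 combination 51 of 57 tested histone genes were called lower with a median of -1.33, compared with -0.10 for the 54 replication genes, and 49 of 58 without the second combination library. In HUCCT1 36 of 59 were called lower and 2 higher with a median of -0.58, compared with -0.43 for the 54. The products of NPAT, SLBP and CASP8AP2 act in the transcription and processing of histone mRNA. In the EGI-1 combination these genes gave 0.08, 0.12 and -0.15 and were not called. In HUCCT1 NPAT (-0.39) and CASP8AP2 (-0.72) were called lower. Histone genes are near-identical copies whose reads may be split between relatives.

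The effect of decitabine was then compared between the lines. The difference of effects, HUCCT1 minus EGI-1, was called for 31 of the 54 genes, all in the lower direction, 57.4% against 15.9% of all 25096 genes tested (7.2% in the lower direction and 8.74% in the higher). No gene was called higher by edgeR or by DESeq2, and none had a higher value at an unadjusted p under 0.05, where 38 were lower (12.9% of all genes lower and 14.8% higher). The median difference was -0.41, and that of all genes 0.03. The 6 largest differences were MCM6 (-0.80, SE 0.103, adjusted p = 1.0e-05), ORC1 (-0.76, SE 0.134), PRIM1 (-0.74, SE 0.156), CASP8AP2 (-0.70, SE 0.147), LIG1 (-0.68, SE 0.120) and MCM5 (-0.67, SE 0.102), with CDT1 next (-0.67, SE 0.141). CDC45 was not called (-0.12, SE 0.114, adjusted p = 0.57). The lines also differed in dose, 500 against 1000 nM, and in a code in the library names (L4 for EGI-1, L3 for HUCCT1), so the line, the dose and whatever the code stands for cannot be told apart. PRIM1 shares exonic positions with NACA, and reads of these 2 genes may mix.

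**Figure D5:**
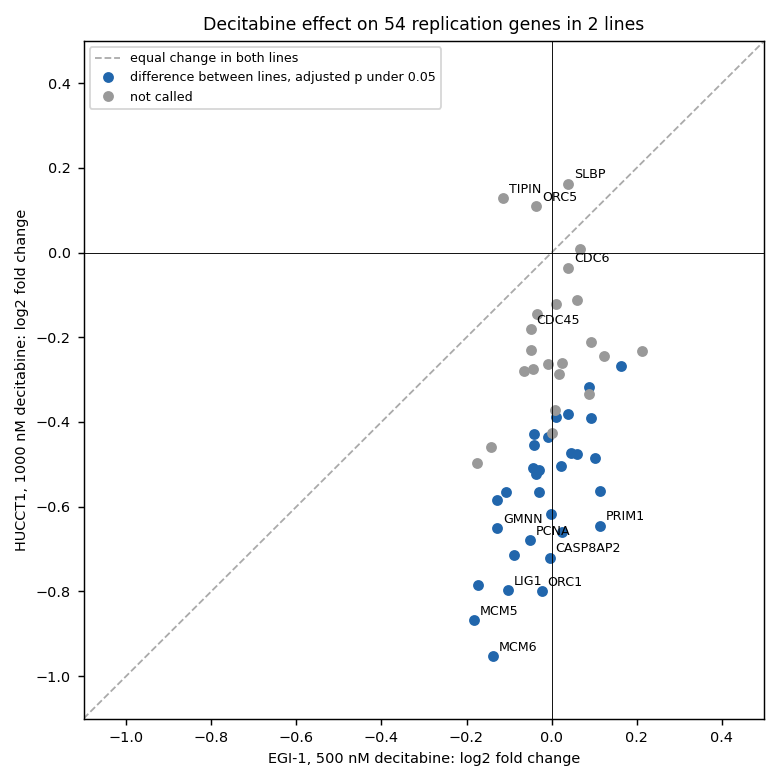
log2 fold change of decitabine against vehicle for the 54 genes in EGI-1 at 500 nM (x) and HUCCT1 at 1000 nM (y), with points in blue where the difference between lines was called and a dashed line at equal change. The points spread between -0.18 and 0.21 along x and between -0.95 and 0.16 along y, and 31 of them are blue.

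The genes lowered by the EGI-1 combination and those lowered by decitabine in HUCCT1 come from different libraries. Of the 16 lower in the former, 15 (93.8%) were among the 34 lower in the latter, of which they made up 44.1%. Of all 54 genes 63% were lower in HUCCT1, which is the share to read the 93.8% against. CDC45 was the exception, and 19 genes were lowered in neither, among them CDC6, CDC7, DBF4, GINS3, ORC2, ORC4, ORC5, ORC6, RFC1, RFC2, RFC3, RPA2, SLBP and TIPIN. Across the 54 genes the log2 fold changes had a Pearson's r of 0.58 and a Spearman's rho of 0.53. Without the second combination library 14 of 15 genes were shared, and the values were 0.55 and 0.52. For decitabine in EGI-1 against decitabine in HUCCT1 the values were 0.38 and 0.39, and for talazoparib in EGI-1 against decitabine in HUCCT1 they were 0.47 and 0.45. These are descriptions over genes that share libraries and are not independent, and the correlations were not computed over all genes.

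The levels of vehicle-treated cells differed between the lines for 35 of the 54 genes, 64.8% against 55.8% of all genes, with 11 higher in HUCCT1 (28.5% of all genes) and 24 lower (27.3%). Both HUCCT1 vehicle libraries lay below both of EGI-1 for 28 genes and above them for 19, against 38.9% and 39.0% of all genes. With library totals alone the split was 6 higher and 37 lower, and with upper-quartile factors 7 and 26. POLD2 (1.13), DBF4 (1.09), CDC7 (0.78) and MCM2 (0.63) were higher in HUCCT1. POLD2 read 120 and 118 CPM in EGI-1 and 248 and 273 in HUCCT1, and MCM2 read 169 and 175, then 255 and 279. ORC6 (-1.2), MCM3 (-1.0), RFC1 (-0.87) and MCM10 (-0.85) were lower. MCM3 read 428 and 424 CPM in EGI-1 and 218 and 207 in HUCCT1, and ORC6 read 47.0 and 48.0, then 21.7 and 19.7. ORC2 to ORC6 were all called lower in HUCCT1 under each of the 4 scalings, and ORC1 was not called lower (0.14, adjusted p = 0.20). Subunits of the MCM ring went both ways, with MCM2 higher and MCM3, MCM4, MCM5 and MCM6 lower, and MCM7 not called (0.09, adjusted p = 0.29). With library totals alone MCM7 was called lower as well (-0.18) and the sign of ORC1 changed (-0.12) without a call. Exons of 25 of the 54 genes overlap those of another gene, 19 of them on the opposite strand, and the use of strand in counting is not stated. MCM2, MCM7, CDC45, GINS2, GINS3, RFC4, RFC5 and LIG1 are among those 19.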

How the data were processed

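RNA of 12 libraries was sequenced, 8 of EGI-1, whose library names carry L4, and 4 of HUCCT1, whose names carry L3. The authors deposited raw read counts per gene on GRCh38. The submitters' processing notes name fastp, Trim Galore, HISAT2 and featureCounts, the paper's methods name fastp, STAR and RSEM, and neither gives the annotation release or the use of strand. The deposited counts are whole numbers, without normalization, for 60651 gene identifiers, of which 60437 matched a symbol, and each of the 54 symbols matched 1 identifier. Total counts were 23139065 to 34965627 per library.

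Genes kept by filterByExpr were scaled by TMM and fitted in edgeR 4.0.16 (R 4.3.3), by quasi-likelihood tests with Benjamini-Hochberg adjustment over all genes tested. The 8 EGI-1 libraries formed 1 fit (22406 genes, residual df 4), the 4 HUCCT1 libraries another (22479 genes, residual df 2), and all 12 a further fit for comparisons between lines (25096 genes, residual df 6). An exact permutation test of 2 against 2 libraries cannot go below p = 0.333, so the tests rest on a dispersion shared across genes. Printed CPM use TMM factors of the joint fit, and levels per kb use the GENCODE 44 canonical transcript.

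The genes and the lists beside them were chosen with earlier results of these data known. Genes named with values were the 6 lowest and 4 highest log2 fold changes in the EGI-1 combination and in HUCCT1, the gene of highest mean CPM in each role, and any gene of the 54 with its fold change and adjusted p. Of the other replication genes only the 3 largest called changes in each direction were named. On simulated counts for the EGI-1 combination, the test called 92 of 100 genes set to a 2-fold change. It called 71 of 100 set to 1.5-fold, with 10 false calls among 22142 genes. For HUCCT1 it called 92 and 44 of 100, with 12 false calls among 22143. Smaller changes were not tested in this way. Whether these rates hold for the 54 genes, at their own levels and spread, was not tested. Alternatives were RLE and upper-quartile factors, library totals alone, no filter on low counts, DESeq2 1.42.0, a fit of the compared arms alone, a replicate block, and leaving out each library.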

Additional observations from a re-analysis of the deposited data

Results flagged for a closer look

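A difference between the lines in the effect of decitabine, by an interaction term of edgeR over 12 libraries (adjusted p under 0.05), marked 31 of the 54 genes (57.4%, against 15.9% of all genes), every one of them lower in HUCCT1 at 1000 nM than in EGI-1 at 500 nM. Line, dose and the code in the library names cannot be told apart in this design. Values are log2 differences, HUCCT1 minus EGI-1. In the MCM ring they were -0.80 for MCM6, -0.67 for MCM5, -0.45 for MCM3, -0.44 for MCM7, -0.41 for MCM2 and -0.38 for MCM4. Among licensing genes they were -0.76 for ORC1, -0.67 for CDT1 and -0.51 for GMNN. Among firing genes GINS1 had -0.61, GINS4 -0.57, MCM10 -0.52 and GINS3 -0.41, and MCM8 had -0.47. The clamp genes were PCNA (-0.61), RFC5 (-0.52), CHTF18 (-0.44) and RFC4 (-0.39). Primase and polymerase genes were PRIM1 (-0.74), POLE2 (-0.66), POLD3 (-0.60), POLA1 (-0.59) and POLE (-0.47). LIG1 had -0.68 and FEN1 -0.39 in Okazaki fragment processing. RPA1 had -0.40, WDHD1 -0.51, TIMELESS -0.37, CHAF1A -0.50, CASP8AP2 -0.70 and NPAT -0.46. Of the 31 calls, 20 held in all 18 alternatives. Those lost in at least 1 were GINS3 (called in 4 of 18), NPAT (9), MCM8, RFC4 and CHTF18 (12 each), POLE2 (13), TIMELESS and WDHD1 (14 each), CHAF1A (15), and MCM2 and FEN1 (17 each).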

How the results depend on the processing

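The total of called genes in each comparison, both directions together, stayed within 1.5 times the reported value under each other scaling, without the filter on low counts, with DESeq2, in fits of the compared arms alone and with a replicate block. By direction the counts moved further, from 1 higher and 16 lower to 4 and 19 for the EGI-1 combination in the fit of both arms alone, and from 11 and 24 to 6 and 37 for vehicle between lines with library totals alone. Leaving out 1 library gave 9 to 19 calls for the EGI-1 combination against vehicle, 2 to 12 for talazoparib against vehicle, 8 to 13 for the combination against decitabine, 0 to 4 for the combination against talazoparib, 26 to 34 for HUCCT1, 21 to 32 for the difference between lines and 28 to 36 for vehicle between lines. Decitabine in EGI-1 and the departure from the sum had 0 calls throughout. Library totals alone moved the median of all genes in the vehicle comparison from -0.01 to -0.27 and that of the 54 from -0.10 to -0.37, with 9 genes above zero in place of 23. Of the called genes, POLD1 (-0.01) and POLE (-0.04) changed sign there. Over all genes, the share of calls that were higher went from 59.3% to 49.2% for the EGI-1 combination with upper-quartile factors. With library totals alone it went from 54.8% to 66.9% for the difference between lines and from 51.1% to 35.3% for vehicle between lines.

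Libraries with the same number did not deviate together (correlations of -0.06 to 0.09), so the numbers were not taken as pairs. A replicate block by title number gave 15 calls for the combination against vehicle, 6 for talazoparib, 9 for the combination against decitabine, 2 for the combination against talazoparib, 47 for HUCCT1 (46 lower and 1 higher), 36 for the difference between lines and 31 for vehicle between lines. On simulated counts with 2 libraries per arm, genes changed 1.5-fold were called less often than genes changed 2-fold, in both lines. The counts for the side lists, the library orders and the overlap with HUCCT1 without the second combination library were added after seeing the data.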
